A study of Mus musculus with 24 samples.

Results

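The RNA response of alveolar macrophages to IL-13 was measured with IL-33 and IL-17A also present. Cells given recombinant IL-33, IL-13 and IL-17A (rIL-33/rIL-13/rIL-17A, 3 libraries, triple-stimulated cells) were set against cells given recombinant IL-33 and IL-17A (rIL-33/rIL-17A, 3 libraries, IL-33/IL-17A cells). These 6 of the 24 libraries of the study were chosen by their treatment label alone. All were primary alveolar macrophages, the resident phagocytes of the lung air spaces, of wild-type BALB/cJ mice at 20 hours after stimulation, and both groups carried IL-33 and IL-17A. The other 18 libraries, 3 to a treatment, came from cells given IL-33 with IL-13, IL-33, IL-13 with IL-17A, IL-17A, or IL-13, and from untreated cells. They served to estimate the spread between libraries and to compare this IL-13 effect with the effects of IL-13 added to IL-33, to IL-17A and to untreated cells (IL-13 alone). The labels state neither the cytokine doses nor how many mice were used. Each table held 17017 genes, of which the 13215 with 1 TPM or more in at least 3 of the 24 libraries were tested. TPM is an abundance per length that sums to the same total in every library, and it rests here on the whole gene span, introns included, so a value may be set against that of the same gene in another library but not against other genes.

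IL-13 is a type 2 cytokine made by T helper cells and innate lymphoid cells. It binds a receptor built of the IL-4 receptor alpha chain and the IL-13 receptor alpha 1 chain, and Janus kinases on that receptor phosphorylate the transcription factor STAT6. In macrophages the pathway is known for alternative activation, a programme of chitinase-like proteins, arginine metabolism, type 2 chemokines and cell fusion. IL-33 is an alarmin of the IL-1 family and IL-17A a cytokine of type 17 inflammation, and the receptors of both are known to feed NF-kB.

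The 6 libraries held 9.30 to 11.63 M reads, as recovered from the TPM values, and 11569 to 12134 genes at 1 TPM or more. Replicate 2 of the triple-stimulated cells stood apart. It had the lowest number of such genes of the 6 libraries, and on the second principal component of all 24 libraries (8.89% of the variance) it scored 43.3, against -5.31 and -10.01 for replicates 1 and 3 of its group. Among tested genes with spans of 36480 bases or more its median difference from the mean of replicates 1 and 3 was -0.30 on the log2 scale, while among those of 4032 bases or less that median was 0.00. On the same component untreated replicate 1 scored 22.3, against -4.95 and -2.19 for the others of its group, and IL-17A replicate 2 scored 20.3, against -8.43 and 2.26. Both belong to groups used in the comparisons of IL-13 effects, and in the IL-13 effect itself they enter only the shared estimate of spread. Counts below are therefore given together with the calls that hold in 4 settings, namely the deposited values, the values without this library, the values after median-ratio scaling, and both changes together. The labels do not tell whether the 3 libraries of a treatment stem from different mice or cultures. The p-values therefore reflect library-to-library spread, which may be technical.

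With IL-13 added, 4321 of 13215 genes (32.7%) were called at an adjusted p under 0.05 (limma-trend, Benjamini-Hochberg adjustment over all tested genes). Of these, 1450 genes (11% of those tested) were higher in triple-stimulated cells and 2871 (21.7%) were lower. A difference of 2-fold or more was seen in 157 of the higher genes (1.19% of those tested) and 134 of the lower ones (1.01%). The split between directions moved with scaling, to 2217 higher (16.8% of those tested) and 2146 lower (16.2%) after median-ratio scaling, or 33% in all. The median log2 fold change over all tested genes was -0.094 on deposited values and -0.01 after that scaling, and small changes are read against this shift. In all 4 settings 2668 genes (20.2%) were called, 1184 (8.96%) higher and 1484 (11.2%) lower, 140 and 114 of them by 2-fold or more. All fold changes were taken as differences of log2(TPM + 1), where the 1 that is added shrinks the change of genes with low TPM, and a change is given as called only where it holds in all 4 settings unless the text says otherwise. In bulk samples fewer cells of a type and less RNA per cell cannot be told apart. The gene lists were chosen with earlier results of these data known. Counts of list members below therefore describe the lists and are no independent test.

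Several feedback inhibitors of cytokine signalling rose, and the list as a whole had no common direction, with a median log2 fold change of 0.047. Cish, an SH2 domain protein that STAT proteins induce and that dampens their signalling, showed the largest rise of the genes named here. Its gene lies at chr9:107296026-107302784 on the plus strand of mm10. It had 139.9, 126 and 135 TPM in triple-stimulated cells against 1.29, 1.597 and 1.005 TPM in IL-33/IL-17A cells. The groups were far apart in every library, with a ratio of mean TPM of 103 and a log2 fold change of 5.88 ± 0.20 (SE; adjusted p = 7.49e-14, limma-trend). Socs1, an inhibitor of Janus kinases, had 24.6, 36.5 and 25.03 TPM in triple-stimulated cells and 7.23, 6.55 and 8.25 TPM in IL-33/IL-17A cells. Its log2 fold change was 1.81 ± 0.23 (SE). Socs3 rose by 1.51 and Socs2 by 1.28 on the same scale, and Ptpn2, a phosphatase of JAK and STAT proteins, rose by 0.33. Ptpn6, the phosphatase SHP-1, fell by 0.53. Of 12 tested members of the feedback list, 5 were called higher and 3 lower, and 5 and 1 in all 4 settings. Socs4 (-0.30), Socs5 (-0.0035), Socs7 (-0.17) and Ptpn1 (0.10) were not called, and Pias1 (-0.21) and Pias3 (-0.29) were called lower on deposited values without holding in all 4 settings.

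The receptor chains of IL-13 did not rise. Il4ra, the signalling chain, had 7.83, 6.62 and 7.71 TPM in triple-stimulated cells and 8.68, 9.47 and 9.899 TPM in IL-33/IL-17A cells, a log2 fold change of -0.30 that did not hold in all 4 settings. Il13ra1 was not called, with a log2 fold change of -0.17, and the call of Il2rg (-0.16), the common gamma chain, did not hold in all 4 settings. Il17ra, the shared chain of IL-17 receptors, fell by 0.70, and Il1rap, the accessory chain of the IL-33 receptor, rose by 0.37. Among JAK and STAT genes, Jak2 rose by 0.38 and Stat5a by 0.24, while Stat3 fell by 0.47 and Stat6 by 0.35. The lower calls of Jak1 (-0.30) and Tyk2 (-0.33) did not hold in all 4 settings, and Stat2 (-0.19), Stat5b (-0.16) and Jak3 (-0.15) were not called. Stat3 (54443 bases) and Stat5a (25819 bases) lie on opposite strands and share 72 bases, and Stat6 shares 40 bases with Nab2, so that without a stated use of strand only reads in those short stretches cannot be told apart.

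Because STAT proteins bind palindromes of TTC and GAA, the start regions of the most increased genes that hold one are shown, each 300 bases long and reading 5′ to 3′ from 250 bases before the transcription start to 50 after it. The sequences are those of RefSeq on GRCm38.p6, and capitals mark each match to TTCNNNGAA (spacer of 3) or TTCNNNNGAA (spacer of 4, the form known for STAT6). Each motif reads the same on either strand. Of the 12 genes with the largest rises, 10 had a start region in that table and 4 held a match.
Cish, chr9:107296409-107296708, plus strand: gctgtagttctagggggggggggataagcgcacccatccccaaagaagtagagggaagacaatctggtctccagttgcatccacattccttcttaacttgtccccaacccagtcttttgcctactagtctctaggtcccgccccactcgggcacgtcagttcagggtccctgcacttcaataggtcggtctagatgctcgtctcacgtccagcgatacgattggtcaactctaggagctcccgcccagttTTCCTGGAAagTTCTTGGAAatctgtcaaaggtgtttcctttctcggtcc
Chil3, chr3:106167515-106167814, minus strand: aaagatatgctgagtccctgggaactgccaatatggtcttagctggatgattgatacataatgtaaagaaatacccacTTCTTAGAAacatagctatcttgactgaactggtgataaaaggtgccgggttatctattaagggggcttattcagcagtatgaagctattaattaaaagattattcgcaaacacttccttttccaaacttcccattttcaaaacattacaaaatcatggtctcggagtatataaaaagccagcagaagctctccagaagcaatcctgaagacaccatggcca
Plekhf1, chr7:38227945-38228244, minus strand: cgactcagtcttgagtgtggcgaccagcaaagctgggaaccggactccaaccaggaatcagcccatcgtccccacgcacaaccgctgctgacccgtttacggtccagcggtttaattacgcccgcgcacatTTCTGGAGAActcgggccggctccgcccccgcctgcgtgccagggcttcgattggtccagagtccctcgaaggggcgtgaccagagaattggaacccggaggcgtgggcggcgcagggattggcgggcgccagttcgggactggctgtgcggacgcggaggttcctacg
Hamp, chr7:30943980-30944279, minus strand: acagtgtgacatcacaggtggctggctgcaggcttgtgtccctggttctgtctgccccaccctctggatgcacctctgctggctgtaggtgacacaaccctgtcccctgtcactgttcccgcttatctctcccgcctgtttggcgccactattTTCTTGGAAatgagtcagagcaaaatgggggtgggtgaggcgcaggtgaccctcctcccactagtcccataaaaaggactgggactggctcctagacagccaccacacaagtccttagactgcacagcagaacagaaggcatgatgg
In Cish the matches TTCCTGGAA and TTCTTGGAA, both with the spacer of 3, began at bases 1 and 12 of the transcript. Chil3 held TTCTTAGAA at 172 bases before the start, Hamp held TTCTTGGAA at 97 bases before, and Plekhf1 held the spacer of 4, as TTCTGGAGAA, at 119 bases before. Start regions on 1 chromosome were left out of the counts that follow. Of all other tested genes with a start region (8895), 13.8% held either motif. That share was 24.5% of 94 genes called higher by 2-fold or more and 11.8% of 85 called lower by 2-fold or more. The spacer of 4 was in 14.9% of the higher genes, 9.41% of the lower ones and 6.28% of all. These are matches of letters in this window, and no test was made of them.

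Of the transcription factors listed for the type 2 programme, about as many rose as did not. Irf4, a factor of alternative activation, had 34.9, 24.7 and 37.9 TPM in triple-stimulated cells against 3.21, 2.65 and 2.49 TPM in IL-33/IL-17A cells. Batf3 had 20.4, 21.9 and 20.2 TPM in triple-stimulated cells and 4.11, 3.801 and 5.002 TPM in IL-33/IL-17A cells. Pparg, the factor on which the alveolar macrophage state depends, had 21.3, 20.8 and 21.7 TPM in triple-stimulated cells and 7.23, 8.31 and 7.88 TPM in IL-33/IL-17A cells. For each of these 3 genes every triple-stimulated library lay above every IL-33/IL-17A one, and the log2 fold changes were 3.13 ± 0.12 for Irf4, 2.05 ± 0.11 for Batf3 and 1.34 ± 0.047 for Pparg (SE). Nfil3 rose by 1.33, Myc by 1.28, Klf4 by 1.02, Egr2 by 0.48 and Cebpb by 0.43. Rela, an NF-kB subunit, fell by 0.44. Of 17 tested factors 9 were called higher and 4 lower, and 9 and 3 in all 4 settings.

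**Figure D1:**
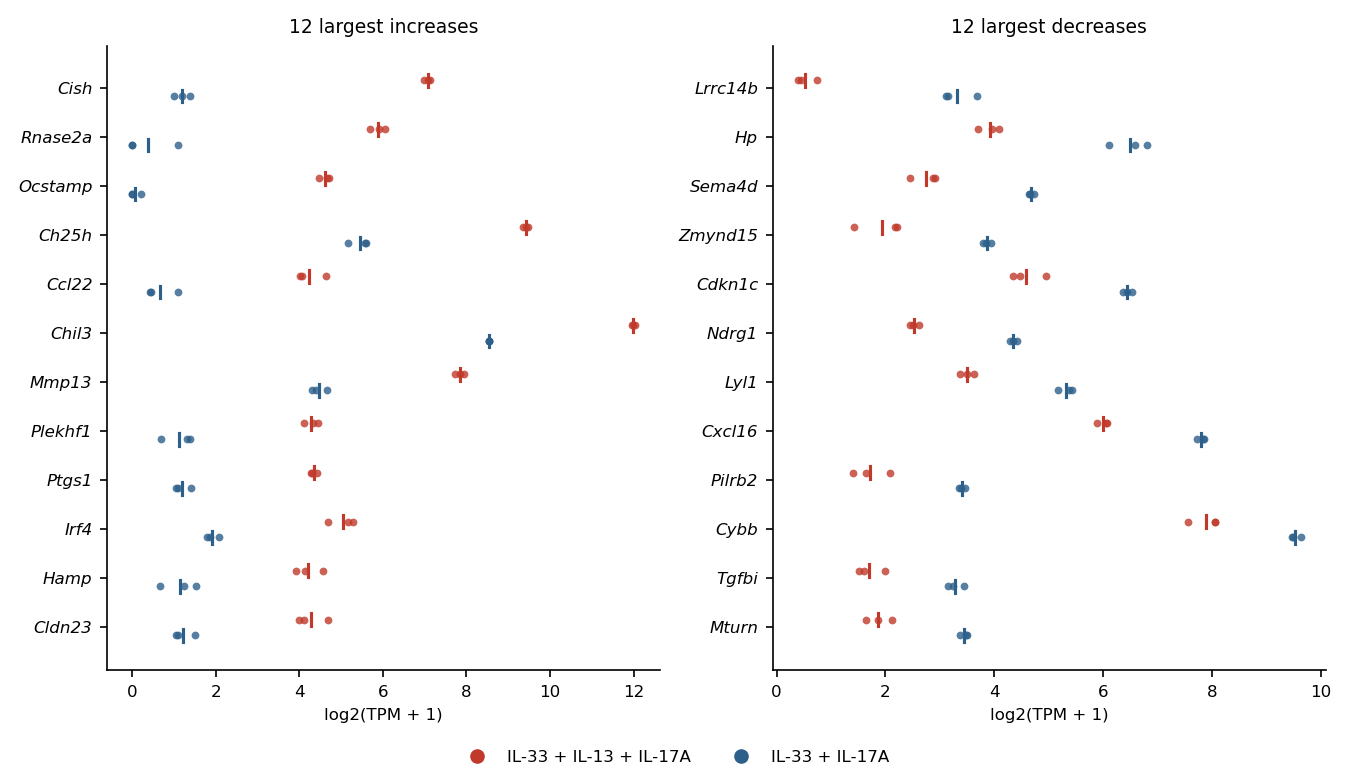
Log2(TPM + 1) of the 12 genes with the largest rises (left) and the 12 with the largest falls (right), in triple-stimulated cells (red, upper points of each gene) and IL-33/IL-17A cells (blue, lower points); points are single libraries and bars group means. For all 24 genes the groups do not overlap, which was a condition of their choice and is true of 40% of all tested genes.

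Nearly all tested genes of alternative activation rose. Chil3, a chitinase-like protein of mouse macrophages also named Ym1, had 4192, 3964 and 4081 TPM in triple-stimulated cells against 369.9, 369 and 372 TPM in IL-33/IL-17A cells. The spread within groups was small beside the log2 fold change of 3.46 ± 0.037 (SE; adjusted p = 1.36e-21, limma-trend), though reads may be shared with its close copy Chil4. Ch25h, the enzyme that makes 25-hydroxycholesterol, had 654, 713 and 686 TPM in triple-stimulated cells and 47.1, 46.7 and 35.1 TPM in IL-33/IL-17A cells, a log2 fold change of 3.97 ± 0.11 (SE). It overlaps a gene of provisional name on the opposite strand. Tgm2, a transglutaminase, rose by 1.58, Slc7a2, an arginine transporter, by 1.07, the mannose receptor Mrc1 by 0.66 and Clec7a, the beta-glucan receptor dectin-1, by 0.58.

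Some classical markers were barely detected in these cells. Arg1, arginase 1, had 0.718, 0.576 and 0.805 TPM in triple-stimulated cells and 0, 0 and 0.0924 TPM in IL-33/IL-17A cells. Retnla, the resistin-like molecule also known as Fizz1, had 1.53, 3.24 and 2.35 TPM in triple-stimulated cells and 0, 0 and 0 TPM in IL-33/IL-17A cells. Both were thus higher with IL-13 and low in every library. Of 25 genes listed for alternative activation 22 were in the tables and 18 were tested, of which 16 were called higher and 0 lower, 15 higher in all 4 settings. Il1rn (0.16) and Matk (-0.083) were not called, and the call of Ccl24 (0.78) did not hold in all 4 settings. The median log2 fold change of the tested members was 1.18. Of the 18, 5 reached the 1 TPM filter only through groups that had received IL-13, so that at least 1 such group had to exceed its counterpart.

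Genes listed for cell fusion moved in both directions, and Ocstamp was among the 12 largest rises. Ocstamp, a membrane protein needed for the fusion of osteoclasts and giant cells in mice, had 21.3, 25.1 and 24.2 TPM in triple-stimulated cells and 0.156, 0 and 0 TPM in IL-33/IL-17A cells. Cdh1, E-cadherin, through which alternatively activated macrophages adhere and fuse, had 29.3, 24.2 and 36.5 TPM in triple-stimulated cells and 3.08, 3.901 and 4.13 TPM in IL-33/IL-17A cells, a log2 fold change of 2.71. Both genes were near the floor or low without IL-13 and many times higher with it. Adam8, a sheddase, rose by 1.87, Dcstamp by 0.91, Acp5, the tartrate-resistant phosphatase, by 0.76, Cd44 by 0.39 and Cd47 by 0.34. The protease Ctsk fell by 0.36, the osteoclast factor Nfatc1 by 0.43 and Sirpa, the receptor of CD47, by 0.28. Of 16 tested members 8 were called higher and 6 lower (8 and 3 in all 4 settings), with a median of 0.11. Ocstamp is the 1 member that met the 1 TPM filter by IL-13 groups alone.

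Chemokines were mostly higher. Ccl22, a ligand of CCR4 on type 2 T cells, had 15.8, 15.2 and 23.8 TPM in triple-stimulated cells against 0.339, 1.12 and 0.371 TPM in IL-33/IL-17A cells. Ccl6 had 553, 521 and 486 TPM in triple-stimulated cells and 161, 164 and 153 TPM in IL-33/IL-17A cells, a log2 fold change of 1.70 ± 0.069 (SE). Cxcl3, a neutrophil chemoattractant, had 24.3, 23.5 and 21.5 TPM in triple-stimulated cells and 6.82, 6.73 and 3.89 TPM in IL-33/IL-17A cells. Each of these was higher in every triple-stimulated library. Cxcl16, a transmembrane chemokine and scavenger receptor, went the other way, with 65.9, 65.4 and 58.4 TPM in triple-stimulated cells and 231, 227 and 212 TPM in IL-33/IL-17A cells. Its span of 6002 bases shares 552 bases with that of Zmynd15 on the opposite strand, which was also among the 12 largest falls, and without a stated use of strand reads in that stretch cannot be told apart. Of 14 tested chemokines 11 were called higher and Cxcl16 alone lower, and 7 were higher in all 4 settings. Of the 14, 3 met the 1 TPM filter by IL-13 groups alone.

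Inflammatory genes split. Il1b, the inflammatory cytokine IL-1 beta, had 31.6, 31.3 and 27.9 TPM in triple-stimulated cells and 4.26, 4.78 and 4.31 TPM in IL-33/IL-17A cells, a log2 fold change of 2.52 ± 0.12 (SE). Ier3 rose by 2.66, Il1a by 0.91 and Nfkb1 by 0.26. Il18, another cytokine of the IL-1 family, had 10.5, 14.8 and 11.3 TPM in triple-stimulated cells and 24.7, 25.4 and 25.4 TPM in IL-33/IL-17A cells, a log2 fold change of -1.001. The inflammasome sensor Nlrp3 fell by 0.70 and the NF-kB regulator Nfkbiz by 0.64. These 7 were the called members of 17 tested, and after median-ratio scaling 9 were higher and 3 lower.

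Proteases also split. Mmp13, collagenase 3, had 228, 212 and 245 TPM in triple-stimulated cells and 24.5, 18.7 and 20.2 TPM in IL-33/IL-17A cells, a log2 fold change of 3.38 ± 0.13 (SE). Mmp19, which overlaps another gene on the opposite strand, had 267, 222 and 267 TPM in triple-stimulated cells and 65.7, 70.5 and 62.6 TPM in IL-33/IL-17A cells. Both collagen-degrading enzymes were higher in every triple-stimulated library. Mmp12, the macrophage elastase, was at 2651 to 2762 TPM in triple-stimulated cells and 2201 to 2300 TPM in IL-33/IL-17A cells and rose by 0.28. Mmp14, a membrane-anchored activator of other metalloproteinases, fell by 1.05, the sheddase Adam17 by 0.64 and the inhibitor Timp2 by 0.62. In all 4 settings 5 of 13 tested members were higher and 5 lower. Of 10 matrix proteins and growth factors 4 were higher and 5 lower in all 4 settings. Fn1, fibronectin, rose by 1.55, Igf1 by 1.14 and Hbegf by 1.10, while Tgfbi fell by 1.58, Spp1, osteopontin, by 0.67 and Gpnmb by 0.61.

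Genes of lipid mediators moved in both directions along the pathway. Ptgs1, the constitutive cyclooxygenase, had 18.6, 18.9 and 20.6 TPM in triple-stimulated cells and 1.14, 1.08 and 1.66 TPM in IL-33/IL-17A cells, a log2 fold change of 3.16 ± 0.092 (SE). Ptgir, the prostacyclin receptor, rose by 1.83, Ltc4s, leukotriene C4 synthase, by 1.18 and Tbxas1, thromboxane synthase, by 1.01. Alox5, the 5-lipoxygenase that starts leukotriene synthesis, fell by 0.81, its partner Alox5ap by 0.51, and Hpgds, a prostaglandin D synthase, by 0.95. Pla2g7, which degrades platelet-activating factor, fell by 0.92, and Ptafr, the receptor of that mediator, by 1.42. Of 17 tested members of the list, which does not hold Ptafr, 7 were higher and 6 lower, the same counts in all 4 settings.

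Other large changes included ribonucleases and an iron hormone. Rnase2a, whose ribonuclease family has close copies that could share its reads, had 50.5, 65.4 and 59.04 TPM in triple-stimulated cells and 0, 1.15 and 0 TPM in IL-33/IL-17A cells. Ear2, an alveolar macrophage ribonuclease of that family, had 2818, 3449 and 2964 TPM in triple-stimulated cells and 531, 588 and 649.5 TPM in IL-33/IL-17A cells, a log2 fold change of 2.38. Both were higher in every triple-stimulated library. Hamp, the iron hormone hepcidin, had 14.1, 22.8 and 16.7 TPM in triple-stimulated cells and 1.87, 0.589 and 1.36 TPM in IL-33/IL-17A cells. Plekhf1 rose by 3.16 and Cldn23, a claudin, by 3.06. Of genes in none of the lists, Awat1, an acyltransferase of wax ester synthesis, rose by 2.85, the potassium channel Kcnh4 by 2.73, the cytokine receptor chain Il20rb by 2.70, Rgcc by 2.49, the retinol carrier Rbp4 by 2.42 and the lactate receptor Hcar1 by 2.41. Among the falls, the hypoxia-responsive Ndrg1 fell by 1.82, the semaphorin Sema4d by 1.93, Pilrb2, which has close copies, by 1.70 and Mturn by 1.57. Values listed for Lyl1 fell by 1.82 and those for Lrrc14b by 2.79. The whole spans of Lyl1 (3492 bases) and Lrrc14b (4428 bases) lie within Nfix and Ccdc127 on the opposite strand. Without a stated use of strand, none of their reads can be told apart from reads of Nfix and Ccdc127.

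Hp and Cybb were among the 12 largest falls, and pattern recognition genes were more often called lower than higher. Hp, haptoglobin, which binds free haemoglobin, had 15.9, 14.6 and 11.98 TPM in triple-stimulated cells and 95.6, 110.4 and 67.8 TPM in IL-33/IL-17A cells, a log2 fold change of -2.58 ± 0.16 (SE). Cybb, the catalytic subunit of the phagocyte NADPH oxidase, had 265, 188 and 267 TPM in triple-stimulated cells and 714, 793 and 719 TPM in IL-33/IL-17A cells, a log2 fold change of -1.64 ± 0.10 (SE). The lowest triple-stimulated value of Cybb was that of replicate 2, and replicates 1 and 3 were also far below the IL-33/IL-17A values. Cd14, the lipopolysaccharide co-receptor, had 628, 613 and 614 TPM in triple-stimulated cells and 1521, 1485 and 1473 TPM in IL-33/IL-17A cells, a log2 fold change of -1.27 ± 0.038 (SE). The C-type lectin Clec4d fell by 1.23, Clec4e by 0.98, the ribosomal RNA sensor Tlr13 by 1.05, Tlr1 by 0.87 and Tlr2 by 0.67. Of 24 tested pattern recognition genes 13 were called lower and 3 higher (10 and 2 in all 4 settings). Their median was -0.28, against -0.094 over all tested genes. Granulocyte and mast cell markers moved with these genes, at a sum of 95.95 to 129 TPM in triple-stimulated cells and 141 to 159 TPM in IL-33/IL-17A cells over the 4 of 14 in the tables, and their part was not tested.

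Fc receptor and complement genes were also more often called lower than higher. Of 17 tested members 10 were called lower and 4 higher, and 8 and 4 in all 4 settings. Fcer1g, the signalling chain of Fc receptors, fell by 0.41, Itgam, the alpha chain of complement receptor 3, by 0.75, C5ar1, the C5a receptor, by 0.94 and C3ar1, the C3a receptor, by 0.62. Fcgr2b, the inhibitory Fc receptor, had 47.4, 40.2 and 45.4 TPM in triple-stimulated cells and 27.9, 29 and 27.9 TPM in IL-33/IL-17A cells, a log2 fold change of 0.63. The complement factors Cfp and C3 rose by 0.90 and 0.70.

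Lysosomal genes were mostly lower, by small amounts. Ctsd, cathepsin D, had 7057, 6726 and 6787 TPM in triple-stimulated cells and 8529, 8585 and 9059 TPM in IL-33/IL-17A cells, a log2 fold change of -0.35. Every triple-stimulated library was lower. Of 30 tested members 23 were called lower and 2 higher, 14 and 2 in all 4 settings, and after median-ratio scaling 15 were lower and 4 higher. Those that rose in every setting were Tfeb, the transcription factor of lysosome genes, by 0.36, and Atp6v0d2, a proton pump subunit, by 0.21.

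Iron genes moved in both directions. Tfrc, the transferrin receptor, had 28.9, 22.5 and 28.5 TPM in triple-stimulated cells and 10.2, 11.3 and 10.5 TPM in IL-33/IL-17A cells, a log2 fold change of 1.24. Fth1, the ferritin heavy chain, had 9121, 9659 and 8756 TPM in triple-stimulated cells and 12940, 12600 and 13210 TPM in IL-33/IL-17A cells, a log2 fold change of -0.49. Slc11a1, an iron transporter of phagosomes, fell by 0.71, the exporter Slc40a1 by 0.71 and Ncoa4, which delivers ferritin for breakdown, by 0.50. Of 17 tested members 5 were higher and 7 lower (5 and 6 in all 4 settings).

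Most genes of the secretory pathway rose. Pdia4, a disulphide isomerase of the endoplasmic reticulum, had 222, 201 and 223 TPM in triple-stimulated cells and 83.8, 78.2 and 83.2 TPM in IL-33/IL-17A cells, a log2 fold change of 1.39 ± 0.046 (SE). Hspa5, the chaperone BiP, had 3953, 3546 and 4123 TPM in triple-stimulated cells and 2334, 2376 and 2372 TPM in IL-33/IL-17A cells. Both were higher in every triple-stimulated library. Creld2 rose by 1.15, Sdf2l1 by 1.06, Herpud1 by 1.01, Manf by 0.97 and P4hb, a disulphide isomerase, by 0.75, and Xbp1, a factor of the unfolded protein response, by 0.33. Of 23 tested members 20 were called higher, 20 in all 4 settings, with a median of 0.68. The stress sensor Ern1 (-0.12) was not called, and the lower call of the sensor Atf6 (-0.41) did not hold in all 4 settings.

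Genes of respiration and biosynthesis changed by smaller amounts. Of 27 oxidative phosphorylation genes 21 were called higher and 0 lower, 18 higher in all 4 settings, with a median of 0.22 and the largest rise in Cycs, cytochrome c, at 0.49. Of 24 ribosome biogenesis genes 11 rose in all 4 settings, among them Dkc1 by 0.57 and Rrs1 by 0.48. Of 19 aminoacyl-tRNA synthetases 7 rose, and 16 after median-ratio scaling. Of 13 tested serine and folate genes 5 were called higher and 1 lower (5 and 0 in all 4 settings). Of 13 tested genes of the Atf4 stress response 7 were called higher and 1 lower (7 and 0 in all 4 settings). The serine pathway enzymes Psat1 and Phgdh rose by 1.003 and 0.92, Mthfd2, of mitochondrial folate metabolism, by 0.72, and Asns, asparagine synthetase, by 0.58. Atf4, the factor known to drive these genes, had 1353, 1408 and 1335 TPM in triple-stimulated cells and 1093, 1064 and 1061 TPM in IL-33/IL-17A cells. The polyamine enzymes Srm and Odc1 rose by 0.78 and 0.49. Of 14 tested polyamine and arginine genes 6 were called higher and 4 lower (6 and 1 in all 4 settings), with a median of 0.048.

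Glycolysis and lipid handling genes moved in both directions, while the calls among cholesterol synthesis and fatty acid oxidation genes were all higher. Ldha, lactate dehydrogenase, rose by 0.87 and Pgk1, a kinase of glycolysis, by 0.67, while Slc16a3, the lactate exporter, fell by 0.48, and of 22 glycolysis and hypoxia genes 8 were higher and 8 lower (8 and 5 in all 4 settings). Of 23 cholesterol synthesis genes 8 were higher and 0 lower, 7 and 0 in all 4 settings, with Fdps, which makes farnesyl diphosphate, at 0.52, and 13 were higher after median-ratio scaling. Fabp4, a fatty acid carrier of alveolar macrophages, rose by 0.95, the scavenger receptor Cd36 by 0.62 and the desaturase Scd2 by 0.89, while the cholesterol exporter Abca1 fell by 0.73 and the lipoprotein Apoe by 0.73. Of 19 fatty acid oxidation genes 7 were higher and 0 lower, 6 and 0 in all 4 settings.

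Immune display and interferon genes were mixed. Of 13 tested interferon-stimulated genes 2 were higher and 5 lower (2 and 3 in all 4 settings), with the GTPase gene Gbp3 at -1.30, and of 15 antigen presentation genes 4 were higher and 5 lower (3 and 1 in all 4 settings). Cd74, the invariant chain of MHC class II, had 173, 196 and 181 TPM in triple-stimulated cells and 104, 109.8 and 113 TPM in IL-33/IL-17A cells. Cd274, the checkpoint ligand PD-L1, rose by 0.59. Of 24 genes of alveolar macrophage identity 12 were higher and 5 lower in all 4 settings, with the carbonic anhydrase Car4 at 1.57 and Siglecf, a defining surface lectin, at -0.89.

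**Figure D2:**
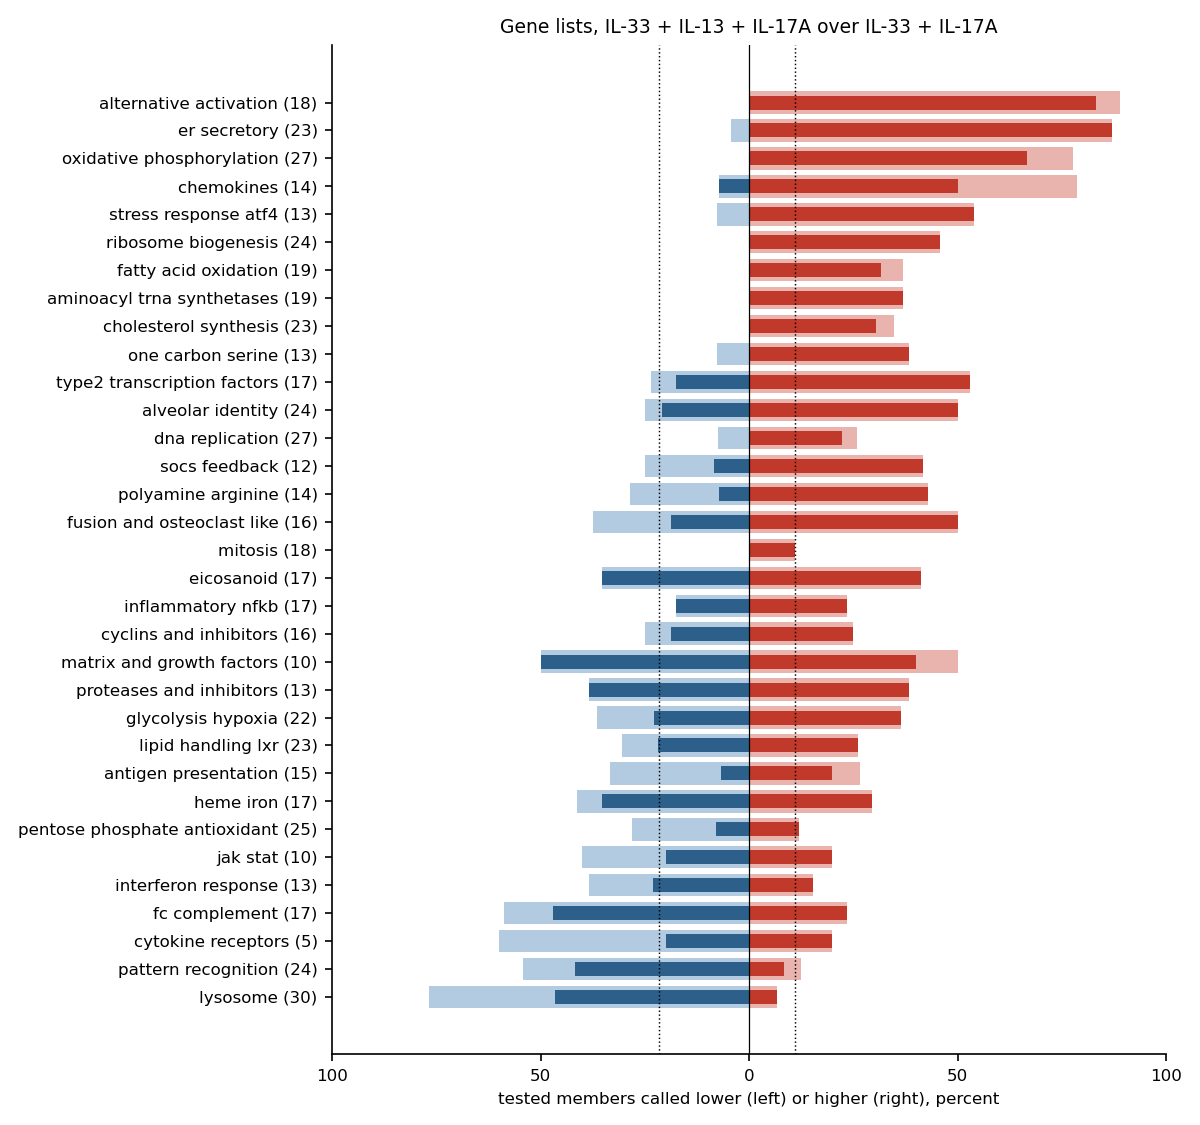
Share of tested members of each gene list called higher (right, red) or lower (left, blue) in triple-stimulated over IL-33/IL-17A cells, in percent, with the number tested in brackets; pale bars are calls on deposited values, dark bars calls that hold in all 4 settings, and dotted lines the shares over all 13215 genes (11% higher and 21.7% lower). Alternative activation (16 of 18 higher) and the secretory pathway (20 of 23 higher) stand at the top and the lysosome (23 of 30 lower) at the bottom.

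Much of this IL-13 effect was shared with IL-13 added to other backgrounds. The group means compared come from separate libraries, but all effects use the same estimate of spread, so their calls are not independent. Of the 4321 genes called here, 2466 were called in the same direction when IL-13 was added to IL-33, which is 57.1% of the genes called here and 78.0% of the 3161 called there (23.9% of tested genes). With IL-17A the shared number was 2730, 63.2% of the genes called here and 69.2% of the 3943 called there (29.8% of tested genes). With IL-13 alone it was 2737, 63.3% of the genes called here and 69.6% of the 3932 called there (29.8%). Opposite directions were called for 2 genes with IL-33 (Gm11560 and Gm28512, named because they are so few), 17 with IL-17A and 18 with IL-13 alone. All these shared and opposite counts rest on calls on deposited values. Across the 13215 genes, which are not independent, Pearson's r between this effect and the others was 0.59 with IL-33, 0.56 with IL-17A and 0.57 with IL-13 alone.

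The difference between effects was then tested for each gene. Against IL-13 with IL-33, 1 gene was called (0.00757% of genes), and 950 genes had an unadjusted p under 0.05 (limma-trend). Against IL-13 with IL-17A 200 genes were called (1.51%), 83 higher (0.628%) and 117 lower (0.885%) here, and 81 (0.613%) held in all 4 settings. Against IL-13 alone 186 were called (1.41%), 53 higher (0.401%) and 133 lower (1.01%), and 83 (0.628%) held. Against the mean of the other 3 effects 85 were called (0.643%), 25 higher (0.189%) and 60 lower (0.454%), and 24 (0.182%) held. Without IL-17A replicate 2, 105 genes were called against IL-13 with IL-17A, 101 of them among the 200, and 71 of the 81 that held were still called. Without untreated replicate 1, 116 were called against IL-13 alone, 110 of them among the 186, and 74 of the 83 that held were still called. These tests share libraries and are not independent of each other. Where a gene averaged at least 10 TPM, the 95% interval of the difference from IL-13 with IL-33 lay within 2-fold for 95.1% of 6813 genes, and for 63.8% of the 6402 genes under 10 TPM. A difference that was not called is thus bounded for most abundant genes and less often for the others.

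**Figure D3:**
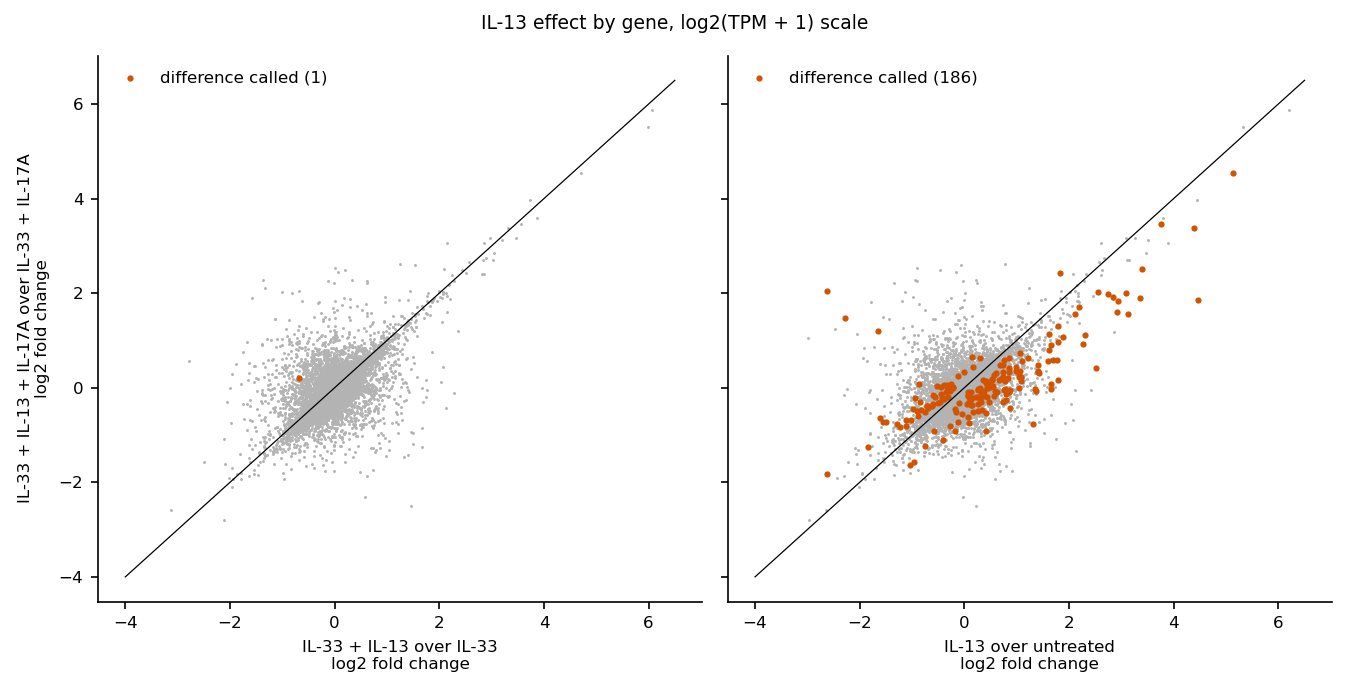
Log2 fold change of each of 13215 genes for IL-13 with IL-33 and IL-17A (vertical axis) against that of IL-13 with IL-33 (left panel) and IL-13 alone (right panel); orange points are genes whose difference between the effects was called, and the line marks equal effects. On the left 1 gene is marked (Tnf) and on the right 186, of which 133 lie below the line.

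Among genes called in both effects, most of those that differed changed less here. The counts in this paragraph rest on calls on deposited values. Of the differences, 83 of the 186 and 81 of the 200 held in all 4 settings. Genes counted as higher there and lower here include Prdx1 and Srxn1, whose lower calls here did not hold in all 4 settings. Of the 186 genes that differed from IL-13 alone, 51 were higher with IL-13 in both, 48 of them by less here, and 38 were lower in both, 29 of them by less here. Another 44 were called higher there and not called here, 17 were lower there and not called here, and 16 were higher there and lower here. The opposite, lower there and higher here, was seen for 1, and 19 were called here only. Of the 200 genes that differed from IL-13 with IL-17A, 37 were higher in both, 34 of them by less here. Lower in both were 41, 34 of them by less here. Higher there and not called here were 47, lower there and not called here 32, and higher there and lower here 14. Lower there and higher here were 2, and 27 were called here only. Genes whose differences are given below, other than Tnf, Gclm, Cat, Prdx1, Srxn1, Clec4n, Pla2g7, Mmp19 and Krt79, were chosen after their values were seen.

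Cxcl3, Mmp13 and Mmp19 rose less here than with IL-13 alone or with IL-17A. Cxcl3 had 24.3, 23.5 and 21.5 TPM in triple-stimulated cells and 6.82, 6.73 and 3.89 TPM in IL-33/IL-17A cells, but 161, 139 and 142 TPM with IL-13 against 4.81, 7.505 and 5.19 TPM in untreated cells. Levels without IL-13 overlapped and levels with IL-13 were far apart. The difference of its log2 effect was -2.76 ± 0.29 (SE; adjusted p = 3.31e-05, limma-trend) from IL-13 with IL-17A and -2.60 ± 0.29 from IL-13 alone. From IL-13 with IL-33 it was -0.032, with a 95% interval of -0.65 to 0.58. Mmp13 differed from IL-13 with IL-17A by -1.41 and from IL-13 alone by -1.01, and Mmp19 by -0.82 and -0.94. Mmp8, neutrophil collagenase, rose by 1.36 with IL-13 alone and had a log2 fold change of -0.071 here, a difference of -1.43. Krt79, a keratin of alveolar macrophages, rose by 1.89 here and by 3.35 with IL-13 alone. The difference from IL-13 with IL-33 was not called for any of these genes, as Tnf was the only gene called in that comparison.

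Most antioxidant genes rose with IL-13 alone and not here. Of 25 genes of the pentose phosphate pathway and of antioxidant defence, 19 were called higher and 2 lower with IL-13 alone, 18 and 2 with IL-17A, and 2 and 8 with IL-33. Over all genes the higher calls were 14.1% with IL-13 alone, 12.2% with IL-17A and 11.2% with IL-33, and the lower calls 15.7%, 17.6% and 12.8% in the same order. In triple-stimulated cells 3 were higher and 7 lower, a split that turned to 10 higher and 2 lower after median-ratio scaling, with 3 and 2 in all 4 settings. The difference itself was called lower here for 14 members against IL-13 with IL-17A and for 13 against IL-13 alone, where 0.885% and 1.01% of all genes were, and 10 and 10 of these held in all 4 settings. It was called lower for 11 members against IL-13 with IL-17A without IL-17A replicate 2, where 0.53% of all genes were, and for 10 against IL-13 alone without untreated replicate 1, where 0.621% were. Against IL-13 with IL-33 it was called for 0 members. Because this list was chosen with earlier results of these data known, its counts beside the shares over all genes are descriptive only. Gclm, the modifier subunit of the enzyme that starts glutathione synthesis, had 44.8, 38.8 and 40.4 TPM in triple-stimulated cells and 33.9, 29.9 and 32 TPM in IL-33/IL-17A cells, but 61.2, 65.5 and 63.2 TPM with IL-13 against 29.6, 31.5 and 32.8 TPM in untreated cells. It rose in both settings and by less here, with a difference of -0.76 ± 0.076 from IL-13 with IL-17A (SE; adjusted p = 2.11e-05, limma-trend) and -0.63 from IL-13 alone.

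Several antioxidant genes had effects of opposite sign. Prdx1, peroxiredoxin 1, had 953, 1026 and 932 TPM in triple-stimulated cells and 1106, 1083 and 1119 TPM in IL-33/IL-17A cells, and 1391, 1364 and 1449 TPM with IL-13 against 1135, 1078 and 1116 TPM in untreated cells. Its log2 effect was -0.19 here, a call that did not hold in all 4 settings, and 0.34 with IL-13 alone, and the difference of -0.52 held. Srxn1, sulfiredoxin, had an effect of -0.18 here, likewise not held, and of 0.56 with IL-13 alone. Cat, catalase, had 105, 101 and 106 TPM in triple-stimulated cells and 117, 120.1 and 119 TPM in IL-33/IL-17A cells, a fall of 0.19, and rose by 0.27 with IL-13 alone. For Cat the difference from IL-13 with IL-33 was 0.00, with a 95% interval of -0.10 to 0.10. Nfe2l2, the factor NRF2 that is known to drive such genes, fell by 0.43 here and by 0.32 with IL-13 alone.

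**Figure D4:**
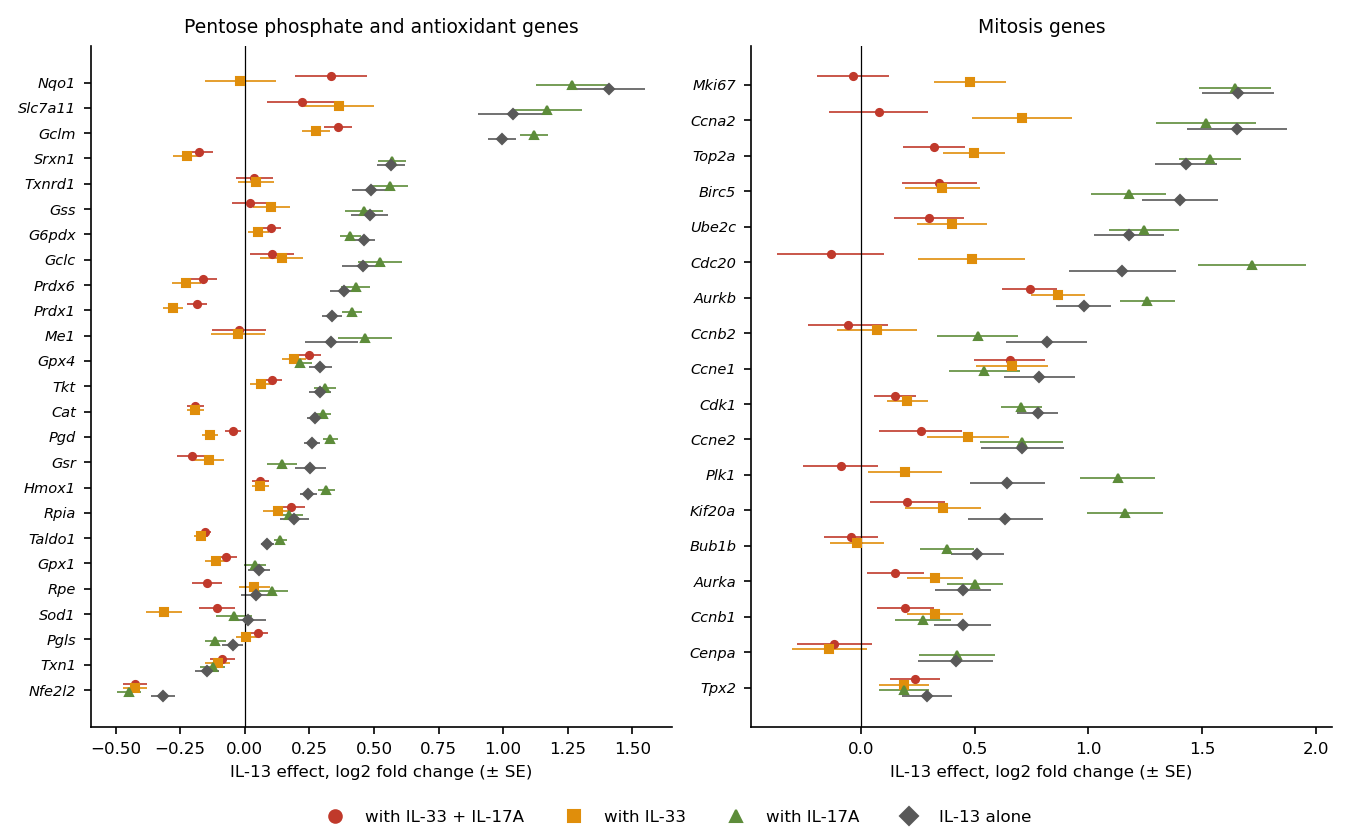
IL-13 effect (log2 fold change ± SE) for 25 pentose phosphate and antioxidant genes (left) and 18 mitosis genes (right) with IL-33 and IL-17A (red circles), with IL-33 (orange squares), with IL-17A (green triangles) and alone (grey diamonds). For most genes of both lists the green and grey symbols lie to the right of the red and orange ones, as for Gclm (0.36 with IL-33 and IL-17A, 0.99 alone) and Mki67 (-0.035 and 1.66).

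Cell cycle genes showed a similar arrangement. Of 18 tested genes in the mitosis list 2 were called higher here, against 5 with IL-33, 15 with IL-17A and 16 with IL-13 alone. The 2 were the kinase Aurkb, by 0.74, and Ccne1, a cyclin that acts before mitosis, by 0.65. Over all genes the higher calls were 11% here, 11.2% with IL-33, 12.2% with IL-17A and 14.1% with IL-13 alone. Of these 18, 5 met the 1 TPM filter by IL-13 groups alone, so that a higher level with IL-13 was in part a condition of their being tested. Mki67, a marker of cycling cells, had 1.803, 1.16 and 2.7 TPM in triple-stimulated cells and 1.72, 1.96 and 2.004 TPM in IL-33/IL-17A cells, and 6.76, 6.67 and 6.17 TPM with IL-13 against 1.23, 1.79 and 1.18 TPM in untreated cells. The groups overlapped here and were far apart with IL-13 alone, and the difference was -1.70 ± 0.22 (SE; adjusted p = 0.000401, limma-trend). The difference was called lower here for 8 mitosis genes against IL-13 with IL-17A and for 5 against IL-13 alone, 5 and 5 of them in all 4 settings. It was called lower for 0.885% and 1.01% of all genes in these comparisons. Without IL-17A replicate 2 the first count was 4, and without untreated replicate 1 the second was 5. Against IL-13 with IL-33 the difference was called for 0 genes of this list.

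Of 27 DNA replication genes 7 were higher and 2 lower here (6 and 0 in all 4 settings), against 20 higher with IL-13 alone, and 3 of the 27 met the filter by IL-13 groups alone. The difference was called lower here for 7 against IL-13 with IL-17A and 5 against IL-13 alone, where 0.885% and 1.01% of all genes were. Without replicate 2 of the triple-stimulated cells it was called lower for 3 and 2, where 0.636% and 0.704% of all genes were. It was called lower for 3 against IL-13 with IL-17A without IL-17A replicate 2 and for 3 against IL-13 alone without untreated replicate 1. Against IL-13 with IL-33 it was called for 0. Mcm5, a subunit of the replicative helicase, rose by 0.47 here and by 1.40 with IL-13 alone. The list of cyclins and cell cycle inhibitors had no common direction. Of 16 tested members 4 were called higher and 4 lower (4 and 3 in all 4 settings), with a median of 0.02. Cyclins that start the cycle rose, Ccnd2 by 2.03 and Ccnd1 by 1.34. Cdkn1c, an inhibitor of cyclin-dependent kinases, had 21.3, 19.2 and 30.1 TPM in triple-stimulated cells and 86.4, 81.8 and 91.1 TPM in IL-33/IL-17A cells, a log2 fold change of -1.86.

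The effects of IL-13 on Clec4n and Pla2g7 were lower here than with IL-13 alone or with IL-17A, and the difference from IL-13 with IL-33 was not called for either gene. Clec4n, dectin-2, had 101, 106 and 97.7 TPM in triple-stimulated cells and 143, 142 and 144 TPM in IL-33/IL-17A cells, and 165, 166 and 171 TPM with IL-13 against 141, 139 and 138 TPM in untreated cells. It thus fell by 0.49 here and rose by 0.26 with IL-13 alone, a difference of -0.75 ± 0.067 (SE; adjusted p = 8.85e-06, limma-trend). Pla2g7, which overlaps a gene of provisional name on the opposite strand, fell by 0.92 here and had an effect of -0.18 with IL-13 alone, a difference of -0.74 ± 0.061 (SE; adjusted p = 5.36e-06, limma-trend).

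Tnf, which encodes the inflammatory cytokine TNF and lies at chr17:35199381-35202007 on the minus strand of mm10, was the gene that differed from IL-13 with IL-33. It had 144, 142 and 131 TPM in triple-stimulated cells and 127, 127 and 109 TPM in IL-33/IL-17A cells, so that the lowest triple-stimulated value lay just above the highest of the other group. With IL-33 and IL-13 it had 92.7, 104 and 102 TPM, against 172, 141 and 168 TPM with IL-33. The log2 effect of IL-13 was 0.20 ± 0.083 here (SE), which was not called (adjusted p = 0.0725, limma-trend), and -0.68 with IL-33, which was. The difference was 0.88 ± 0.12 (SE; adjusted p = 0.00853, limma-trend), it held in all 4 settings, and its 95% interval was 0.63 to 1.12. When only the 12 libraries of both effects were fitted, 1 gene was again called, and it was not Tnf.

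**Figure D5:**
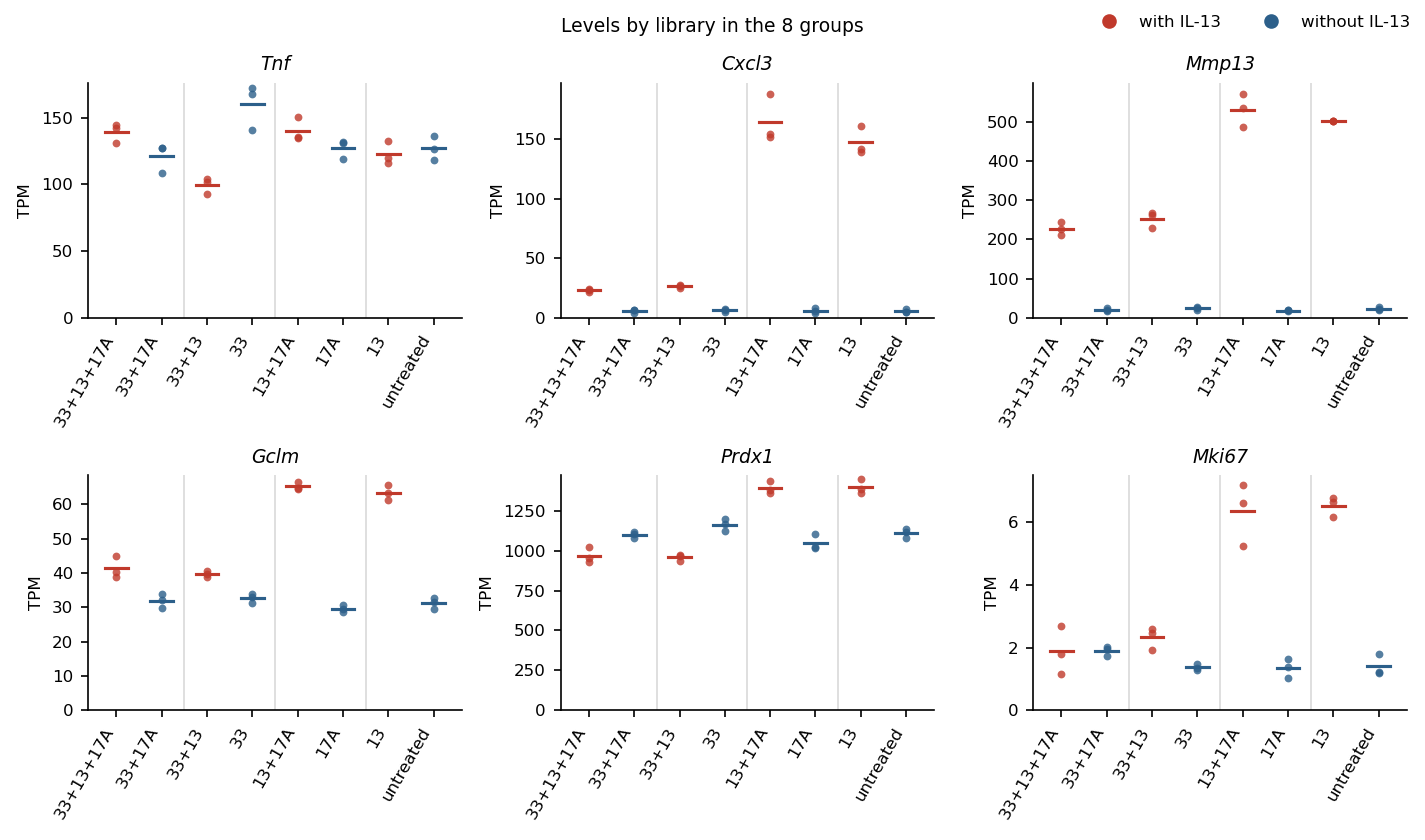
TPM of Tnf, Cxcl3, Mmp13, Gclm, Prdx1 and Mki67 in the 8 groups, each IL-13 group (red) left of its counterpart without IL-13 (blue); points are libraries, bars means, axes start at 0, and group names give the interleukins by number. Cxcl3 averaged 23.1 TPM in triple-stimulated cells and 164 TPM with IL-13 and IL-17A, and Tnf was lower with IL-13 than without it in the IL-33 pair, at 99.6 against 160.1 TPM.

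The label of the cells was checked against marker lists. Itgax, the integrin CD11c, had 2404, 1943 and 2514 TPM in triple-stimulated cells and 1694, 1856 and 1787 TPM in IL-33/IL-17A cells. Marco did not pass the filter, at 0.203 to 0.289 TPM in triple-stimulated cells and 0.149 to 0.306 TPM in IL-33/IL-17A cells. It has a long span, and whether that accounts for the low values was not tested. The summed level of the 16 alveolar macrophage markers was 20260 to 21210 TPM in triple-stimulated cells and 14640 to 15540 TPM in IL-33/IL-17A cells, with 10 of 15 tested higher and 3 lower (10 and 2 in all 4 settings). Chil3 and Ear2, which rose with IL-13, carried this difference. Without both, the sum was 13210 to 13800 TPM in triple-stimulated cells and 13740 to 14520 TPM in IL-33/IL-17A cells. Siglecf had 301, 257 and 303 TPM in triple-stimulated cells and 505, 543 and 541 TPM in IL-33/IL-17A cells. Among granulocyte and mast cell markers Csf3r, Cxcr2 and Siglecg fell, by 1.17, 1.33 and 1.005. The 6 epithelial markers in the tables summed to 39.9 to 46.6 TPM in triple-stimulated cells and 21.6 to 23.9 TPM in IL-33/IL-17A cells, with Cdh1 higher, and Epcam and Hopx lower in all 4 settings. Without Cdh1 the others summed to 10.02 to 15.7 TPM in triple-stimulated cells and 17.7 to 20.3 TPM in IL-33/IL-17A cells. The single tested lymphocyte marker, Il7r, fell by 0.33, and the single tested fibroblast marker, Pdgfra, by 0.81, while Dcn was listed at 0 in all 6 libraries. Of 8 monocyte and interstitial macrophage markers Apoe alone was called, and the list summed to 262 to 306 TPM in triple-stimulated cells and 357 to 377 TPM in IL-33/IL-17A cells. Vwf and Clec9a, the single tested endothelial and dendritic cell markers, were not called. The part of other cells in the results was not tested.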

How the data were processed

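RNA of 24 libraries of primary alveolar macrophages was measured, 3 in each of 8 treatment groups, and groups were taken from the treatment label. The authors deposited 1 table of TPM values per library made by the authors. The submitters' processing notes name STAR and mm10. Which counting tool was run, and whether it used strand, is not stated there. Deposited coordinates were used 1-based on mm10, and the deposited gene length equals the gene span for all 17017 genes.

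Of values worth 20 reads or fewer, 90.2% to 91.7% were whole within 0.05 reads once multiplied by the span, which gave 9.11 to 12.86 M reads per library. The median SE of a log2 fold change was 0.074 for genes that averaged at least 10 TPM and 0.15 for the others.

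Values were tested as log2(TPM + 1) with limma-trend (limma 3.58.1, R 4.3.3) in 1 fit of 8 group means over 24 libraries, with 16 residual degrees of freedom, for genes that reached 1 TPM in 3 libraries. P-values were adjusted by Benjamini-Hochberg over 13215 genes in each of 5 comparisons, namely the IL-13 effect and its difference from 4 others, and genes under 0.05 were called. Scripts were tested on simulated data. The combination of leaving out a library with scaling, and marker sums without single genes, were chosen after seeing the data.

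The gene lists and their members were chosen with earlier results of these data known, while the 6 libraries were taken by their treatment label. Named genes were the 12 largest called changes in each direction (5 TPM or more in 1 group, no overlap between groups), up to 5 members of each list and 5 genes of each difference test by smallest p, all receptor, JAK, STAT and feedback genes, and 6 further unlisted genes in each direction. Some genes that this rule names are not reported here. List members named beyond these were chosen after their values were seen. Promoter sequences came from RefSeq and were matched by symbol.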

Additional observations from a re-analysis of the deposited data

Results flagged for a closer look

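Genes listed here had an IL-13 effect with IL-33 and IL-17A that differed from the effect in another background by a test of the difference itself (limma-trend, adjusted over 13215 genes). All values are differences of log2 fold changes. From IL-13 with IL-33, Tnf differed by 0.88. From IL-13 with IL-17A, Gclm differed by -0.76, Pla2g7 by -0.73, Clec4n by -0.69, Prdx1 by -0.60 and Cat by -0.49. From IL-13 alone, Mmp19 differed by -0.94, Clec4n by -0.75, Srxn1 by -0.74, Pla2g7 by -0.74 and Cat by -0.46. From the mean of the other 3 effects, Krt79 differed by -0.98, Mmp19 by -0.62, Pla2g7 by -0.47, Clec4n by -0.45 and Cat by -0.32. These tests share the 6 libraries of the triple-stimulated and IL-33/IL-17A cells, so they do not repeat each other independently.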

How the results depend on the processing

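When the groups compared were fitted without the other libraries, 1847 genes were called for the IL-13 effect, against 4321, with 65 for the difference from IL-13 with IL-17A, against 200, and 68 for that from IL-13 alone, against 186; fewer libraries enter that fit. Without triple-stimulated replicate 2 and after median-ratio scaling together, the difference from the mean of the other 3 was called for 48 genes, against 85, and Socs5, not called in the main result, had a log2 fold change of 0.20. Leaving out 1 library at a time gave 3263 to 4961 genes for the IL-13 effect, 1 to 2 for the difference from IL-13 with IL-33, 105 to 237 for that from IL-13 with IL-17A, 111 to 263 for that from IL-13 alone and 47 to 165 for that from the mean of the other 3. Counts moved by over 1.5 times without a library as follows. The difference from IL-13 with IL-17A was called for 105 and 132 genes without IL-17A replicates 2 and 1, 123 to 125 without any 1 library of IL-13 with IL-17A, and 123 and 129 without IL-33/IL-17A replicates 2 and 3. That from IL-13 alone was called for 111 without IL-13 replicate 1 or 2, 116 without untreated replicate 1, and 122 without IL-33/IL-17A replicate 2. That from the mean of the other 3 was called for 165, 52 and 48 without triple-stimulated replicates 3, 2 and 1, and for 47 to 53 without an IL-33/IL-17A library. The causes were not tested. The IL-13 effect was called for 4315 and 4346 genes with pseudocounts of 0.1 and 5, 4408 without a filter, 3710 at a mean of 5 TPM or more, 4313 with a robust prior, 3796 with a term for library numbers of 30 or higher and 4527 with voom on recovered reads. Library numbers were 16, 31 and 32 in IL-33/IL-17A cells and 22, 23 and 36 in triple-stimulated cells. With the term for numbers of 30 or higher, 1459 genes were higher and 2337 lower, against 1450 and 2871 without it. No paired analysis was possible because the labels give no replicate numbers that run across groups. Genes under 10 TPM have wider intervals, and a difference not called there is not bounded within 2-fold for many of them.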

Other observations

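Genes outside the lists also had called effects of opposite direction between backgrounds, and those given here were chosen after their values were seen. Acod1, the enzyme that makes itaconate in activated macrophages, had 9.47, 8.29 and 8.51 TPM in triple-stimulated cells and 20.96, 16.9 and 14.9 TPM in IL-33/IL-17A cells, and 24.4, 32.7 and 29.1 TPM with IL-13 and IL-17A against 13.8, 16.3 and 22.8 TPM with IL-17A. Its log2 effect was -0.92 here and -1.09 with IL-33, but 0.69 with IL-17A and 0.42 with IL-13 alone. Sdc1, the heparan sulphate proteoglycan syndecan 1, had 5.76, 5.84 and 8.09 TPM in triple-stimulated cells and 9.59, 9.33 and 8.55 TPM in IL-33/IL-17A cells, a log2 effect of -0.44, against 0.87 with IL-13 alone. Alas1, which starts haem synthesis, had an effect of -0.34 here and of 0.26 with IL-13 alone. The differences from IL-13 alone were -1.34 for Acod1 (adjusted p = 0.0055), -1.31 for Sdc1 (adjusted p = 0.000701) and -0.60 for Alas1 (adjusted p = 0.000219, limma-trend for all 3). None of the 3 was called as different from IL-13 with IL-33.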
